A study of Homo sapiens with 12 samples.

Results

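The subject here is a group of 10 genes for secreted inflammatory proteins that senescent cells are known for releasing: IL6, CXCL8, CXCL1, CXCL2, CXCL12, CCL2, IL1A, IL1B, LIF and IL11. They were taken by symbol from a table of read counts, in which each symbol matched 1 of the 40591 named lines. The table covers 12 RNA-seq libraries of ARPE-19, an established human line derived from retinal pigment epithelium (RPE), the pigmented layer behind the photoreceptors. There were 4 groups of 3 libraries: WT, for which the labels name no introduced gene; GFP, carrying green fluorescent protein as an open reading frame (ORF); GSTA4, carrying glutathione S-transferase alpha 4, an enzyme that clears products of lipid peroxidation; and OSK, read here as the reprogramming factors POU5F1, SOX2 and KLF4. The labels describe stable ARPE-19 cells collected 4 days into ORF expression, and give no promoter for the ORFs. Whether replicate libraries were separate cultures or lines is not stated in them, so group and line cannot be told apart, and p-values measure only the spread between these libraries. In bulk RNA, fewer cells of a kind and less RNA per cell cannot be told apart either.

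Senescent cells stop dividing and release cytokines, chemokines and proteases, together called the senescence-associated secretory phenotype. IL1A and IL1B act through the IL1 receptor on NF-kB, the factor that, with C/EBP and AP-1 factors, drives transcription of IL6 and of the chemokines. CXCL8, CXCL1 and CXCL2 attract neutrophils through CXCR1 and CXCR2, CCL2 attracts monocytes through CCR2, and CXCL12 is bound by CXCR4 and by the scavenger receptor ACKR3. IL6, IL11 and LIF form 1 cytokine family that signals through the shared receptor chain IL6ST (gp130) to JAK kinases and STAT3. RPE cells are known to make CCL2, CXCL8, IL6 and LIF when stimulated, and their cytokines are studied in retinal inflammation and degeneration.

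The libraries held 12630675 to 17045454 reads. Levels are CPM, the reads of a gene relative to the TMM-scaled size of its library. A count of 0 allows up to 3 reads, which is 0.177 to 0.228 CPM in 1 library and 0.0642 to 0.0716 CPM over the 3 libraries of a group, covering counting error only. The ORF genes followed the labels: GSTA4 was at 415 ± 17.6 CPM (SD, n = 3) in its own group and at 20.2 CPM or less on average in the others, and POU5F1, SOX2 and KLF4 averaged 627 to 927 CPM in OSK and 1.57 CPM or less elsewhere. WT replicate 1 stood apart from WT replicates 2 and 3, with a chi-square per degree of freedom over genes of 13.8 and 16 against 2.5 between the other two. In GFP replicate 1, 27349 named genes had at least 1 read, a number that was 19488 to 22073 in every other library. Of 18 RPE markers, 14 had enough reads to test, among them PMEL at group means of 101 to 357 CPM and OTX2 at 131 to 192 CPM. The visual-cycle enzyme RPE65 averaged 0.0229 to 0.494 CPM and TTR at most 0.114 CPM, so both were close to absent. Other listed RPE markers were not, such as LRAT at group means of 1.05 to 14.3 CPM and TYRP1 at 46.4 to 200 CPM.

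Only LIF, CCL2 and CXCL12, 3 of the 10 genes, passed edgeR's default filter on low counts; 15179 named lines passed in all. LIF was the most abundant, at 17.4 to 25.1 CPM per kilobase of exon over the group means, and CCL2 followed at 1.89 to 12.5. The other 8 genes were at 0.528 CPM per kilobase or below in every group. On this scale, which allows levels of different genes to be compared, LIF and CCL2 stood above the other 8 genes in every group. The 7 genes that did not pass the filter had between 0 and 52 reads in a group of 3 libraries. Summed over the 10 genes, the WT libraries had 93.2 to 97.8 CPM, the GFP libraries 98.3 to 117, the GSTA4 libraries 92.8 to 106 and the OSK libraries 108 to 115.

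**Figure D1:**
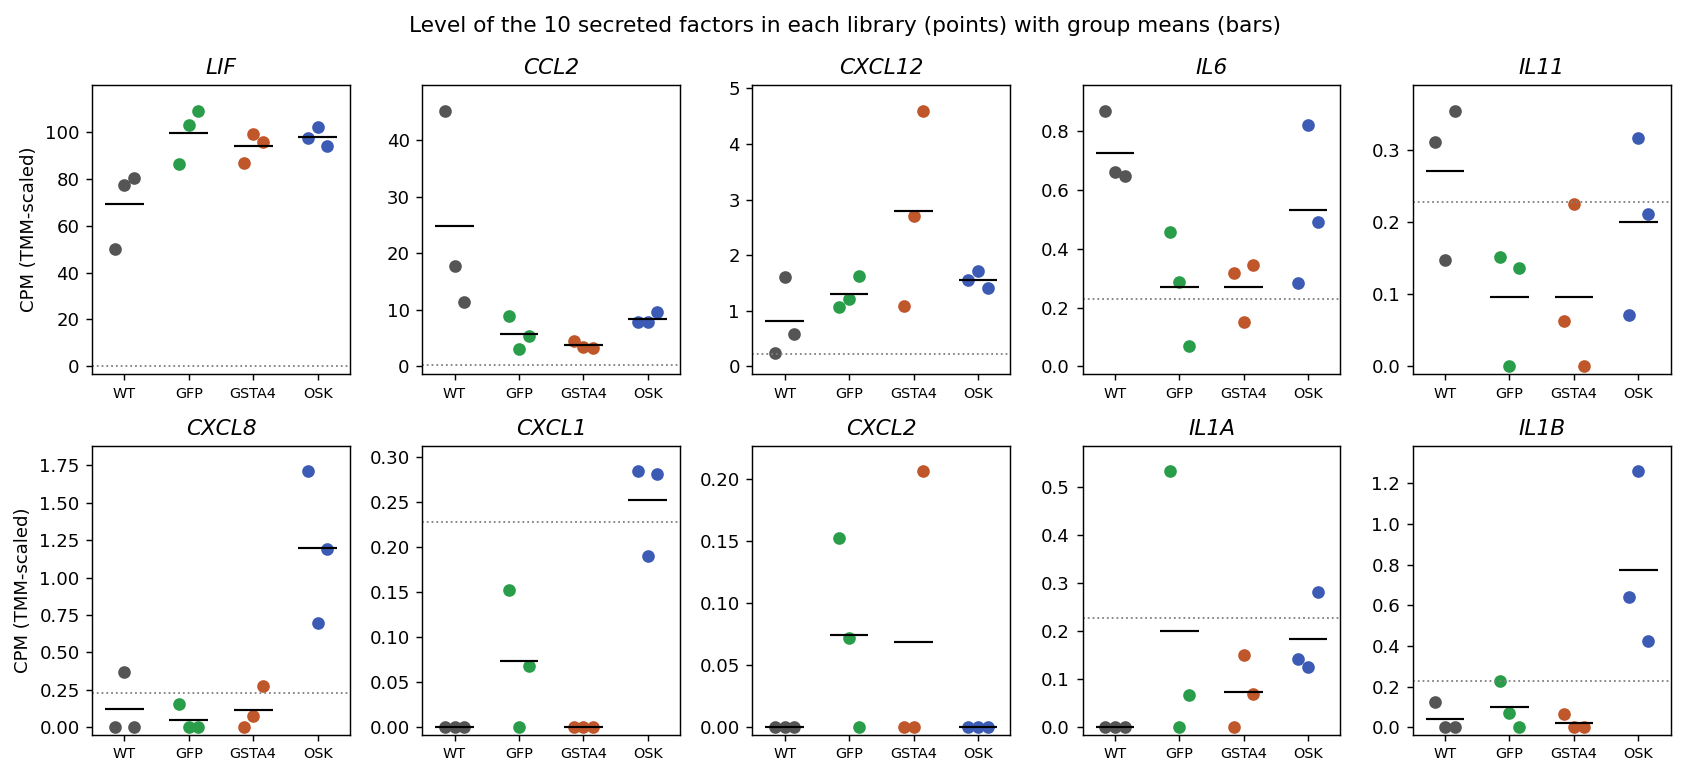
Level of each of the 10 genes (vertical axes, CPM, a separate linear scale for each gene) in the 4 groups; points are libraries, with replicates 1 to 3 from left to right, bars are group means and the dotted line is 3 reads in the smallest library (0.228 CPM). LIF is lowest and CCL2 highest in the WT libraries, and CXCL8, CXCL1 and IL1B are highest in the OSK libraries.

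CXCL8, CXCL1 and IL1B were the genes with more reads in each OSK library than in any library of the other groups. Of the 15179 lines that passed the default filter, 54.7% had no overlap between OSK and GFP, in either direction. The share was 58% for OSK and GSTA4 and 53.5% for OSK and WT. These 3 genes were below that filter. Sequence upstream of their start sites is shown, with matches to the binding motifs of NF-kB, AP-1 and C/EBP and of the octamer, SOX and KLF families to which the OSK factors belong. It comes from the RefSeq promoter table (GRCh38.p14), which held windows for 8 of the 10 genes, and ends before the first annotated exon; CCL2 and LIF were not in it. Capitals mark matches on either strand to GGNNTTTCC (NF-kB), TGANTCA (AP-1), TTGCNNAA (C/EBP), ATGCAAAT (octamer), CATTGTT (SOX) or GGGNGTGG (KLF), and no matches overlapped in these stretches.
CXCL8: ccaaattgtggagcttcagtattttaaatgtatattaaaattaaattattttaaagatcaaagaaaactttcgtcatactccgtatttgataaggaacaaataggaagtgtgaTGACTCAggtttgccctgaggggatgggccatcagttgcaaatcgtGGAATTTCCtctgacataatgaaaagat
CXCL1: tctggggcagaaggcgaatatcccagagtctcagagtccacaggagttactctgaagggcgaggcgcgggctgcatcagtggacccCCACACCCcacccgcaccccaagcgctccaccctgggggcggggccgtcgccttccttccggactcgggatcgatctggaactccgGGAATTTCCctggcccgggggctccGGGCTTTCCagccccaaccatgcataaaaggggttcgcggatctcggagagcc
IL1B: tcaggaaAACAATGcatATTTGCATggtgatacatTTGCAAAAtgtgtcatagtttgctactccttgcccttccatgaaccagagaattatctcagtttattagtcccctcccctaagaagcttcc
The stretches lie at chr4:73740319-73740505 (plus strand), chr4:73869143-73869392 (plus strand) and chr2:112836904-112837029 (minus strand), each upstream of its gene. Counted from the RefSeq start site, CXCL8 had an AP-1 match at base -137 and an NF-kB match at base -91. CXCL1 had a KLF match at base -164 and NF-kB matches at bases -78 and -53, and CXCL2, its close paralog, had NF-kB matches at bases -77 and -53. IL1B had a SOX match at base -243, an octamer match at base -233 and a C/EBP match at base -215. Some of the same letters stood in members whose OSK libraries were not all above the other libraries. IL6 had an NF-kB match at base -72 and a C/EBP match at base -155, and CXCL2 had a C/EBP match at base -188. IL11 had an AP-1 match at base -96 and a KLF match at base -218. IL1A had 2 windows, with AP-1 matches at bases -105 and -55 in the first. In the second, counted from its own start site, AP-1 matches lay at bases -12 and 38. The CXCL12 window held no match to any of these motifs. Of all 35116 windows, each 300 bases long, 6.26% held the NF-kB letters, 7.71% AP-1, 10.5% C/EBP, 1.77% the octamer, 3.33% SOX and 17.2% KLF. These matches are descriptions of letters and were not tested as binding sites.

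LIF, which signals through LIFR and IL6ST, was lower in WT than in all 3 ORF lines. LIF lies on chromosome 22 at 30240447 to 30246851 (minus strand, GENCODE 29, GRCh38). The WT libraries had 50.1, 77.2 and 80.1 CPM, the GFP libraries 86.4, 103 and 109 CPM, the GSTA4 libraries 86.7, 99.2 and 95.4 CPM, and the OSK libraries 97.4, 102 and 93.9 CPM. Every WT library was below every library of the ORF lines, while the 3 ORF lines overlapped. By edgeR's quasi-likelihood test with Benjamini-Hochberg adjustment over the 15179 tested lines, LIF was 1.44-fold higher in GFP than in WT (log2 fold change 0.53, SE 0.121, adjusted p = 0.00386). It was 1.36-fold higher in GSTA4 than in WT (log2 0.44, adjusted p = 0.00673) and 1.41-fold higher in OSK than in WT (log2 0.50, adjusted p = 0.00187). Without WT replicate 1 these log2 differences were 0.33, 0.25 and 0.31, and all 3 still passed the threshold of 0.05 (adjusted p = 0.00423, 0.0171 and 0.00222). Between the ORF lines the log2 differences were -0.09 for GSTA4 against GFP (95% interval -0.34 to 0.16), -0.03 for OSK against GFP (-0.27 to 0.22) and 0.06 for OSK against GSTA4 (-0.19 to 0.31), and none passed the test. An antisense gene, LIF-AS1, and a second annotated gene share 267 of the 3969 exonic bases of LIF (6.73%), and whether reads there were counted by strand is not given in the sources used here.

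CCL2, the monocyte chemoattractant, was highest in WT and lowest in GSTA4. CCL2 lies on chromosome 17 at 34255218 to 34257203 (plus strand). Levels were 45.3, 17.7 and 11.4 CPM in the WT libraries, and 8.96, 3.15 and 5.36 CPM in the GFP libraries. The GSTA4 libraries had 4.57, 3.37 and 3.3 CPM and the OSK libraries 7.89, 7.78 and 9.56 CPM. WT replicate 1 was far above the rest, but the other WT libraries too were above all 9 libraries of the ORF lines. Relative to WT, the fitted level was 0.233 in GFP (log2 fold change -2.10, SE 0.373, adjusted p = 0.000453 by edgeR), 0.152 in GSTA4 (log2 -2.72, SE 0.393, adjusted p = 1.37e-05) and 0.338 in OSK (log2 -1.56, SE 0.354, adjusted p = 0.0011). Without WT replicate 1 the log2 differences shrank to -1.33, -1.94 and -0.79, with adjusted p = 0.000193, 2.73e-07 and 0.00657.

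Among the ORF lines, CCL2 was higher in every OSK library than in every GSTA4 library. The difference was 2.23-fold (log2 1.16, SE 0.423, adjusted p = 0.0293 by edgeR), and it was near the threshold. It missed it under DESeq2 (adjusted p = 0.0581) and without GSTA4 replicate 2 (0.0869), GSTA4 replicate 3 (0.0935) or OSK replicate 3 (0.0834), with the fold change at log2 1.07 to 1.18 in these. GFP overlapped both: its log2 difference was -0.62 for GSTA4 against GFP (95% interval -1.55 to 0.31, adjusted p = 0.326) and 0.54 for OSK against GFP (-0.30 to 1.37, adjusted p = 0.292). The order of CCL2 was thus WT, OSK, GFP and GSTA4, and of the neighbours in that order WT and OSK alone were separated by the test. With no filter on low counts, CCL2 was called in both other pairs as well (adjusted p = 0.0117 for GSTA4 against GFP and 0.00549 for OSK against GFP by edgeR), although their libraries overlapped.

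CXCL12, the ligand of CXCR4 and ACKR3, was low in all groups and highest in GSTA4. CXCL12 lies on chromosome 10 at 44370165 to 44386493 (minus strand). The WT libraries had 0.249, 1.61 and 0.589 CPM, the GFP libraries 1.06, 1.22 and 1.63 CPM, the GSTA4 libraries 1.08, 2.7 and 4.6 CPM, and the OSK libraries 1.56, 1.71 and 1.41 CPM. The GSTA4 libraries spread over a wide range and their lowest lay inside the ranges of WT and GFP. The GSTA4 level was 3.5-fold that of WT (log2 1.81, SE 0.517, adjusted p = 0.00874 by edgeR). It rested on GSTA4 replicate 3, without which the log2 difference was 1.23 and the adjusted p 0.106. GSTA4 against GFP stood at log2 1.08 (95% interval 0.06 to 2.10, adjusted p = 0.105). This comparison was called with no filter on low counts and all libraries kept (adjusted p = 0.0231), and without WT replicate 1 (0.0452) or GSTA4 replicate 1 (0.0264). With the filter and all libraries, no other pair of groups passed the test. Neighbours in the order GSTA4, OSK, GFP and WT all overlapped.

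**Figure D2:**
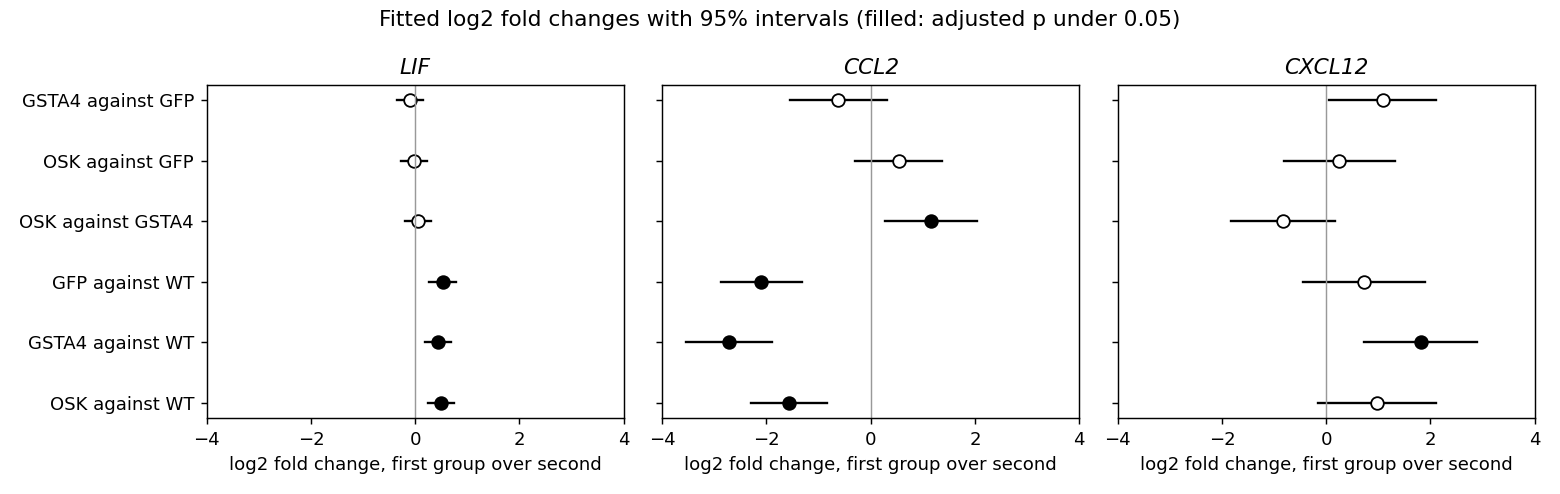
Fitted log2 fold changes (horizontal axes, first group over second) of LIF, CCL2 and CXCL12 in the 6 comparisons of groups (vertical axis); points are estimates, filled where the adjusted p was under 0.05, and lines are 95% intervals. The filled points lie mostly in the comparisons with WT, where LIF is above 0 and CCL2 below 0.

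These calls stand beside a large share of calls over all tested lines. GFP against WT called 2 of the 3 tested genes, LIF higher and CCL2 lower, where 22.2% of all tested lines passed, 11% higher and 11.2% lower. GSTA4 against WT called all 3, with LIF and CXCL12 higher and CCL2 lower, where 38.6% passed, 19.7% higher and 19% lower. OSK against WT called 2, LIF higher and CCL2 lower, where 45.4% passed, 22.7% in each direction. By edgeR's test GSTA4 against GFP and OSK against GFP called 0 of 3, where 29.2% and 45.9% of lines passed. Unadjusted, CXCL12 alone was under 0.05 in the first and no gene in the second, and DESeq2 called 0 in both. OSK against GSTA4 called CCL2 alone, where 47.8% passed, and a difference anywhere among the 4 groups was called for all 3, where 66.9% passed. Groups that did not overlap were found for LIF and CCL2 in GFP against WT, where 34.6% of tested lines did not overlap, in GSTA4 against WT (49%) and in OSK against WT (53.5%), and for CCL2 in OSK against GSTA4 (58%). None of the 3 genes had such a separation in GSTA4 against GFP (42.3%) or OSK against GFP (54.7%). These comparisons share libraries, so they are not independent of each other.

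The neutrophil chemokine CXCL8 was close to absent outside OSK. CXCL8 lies on chromosome 4 at 73740506 to 73743716 (plus strand). The OSK libraries held 24, 11 and 17 reads, the WT libraries 0, 5 and 0, the GFP libraries 2, 0 and 0, and the GSTA4 libraries 0, 1 and 4. All 3 OSK libraries were above all 9 others, at 1.71, 0.695 and 1.19 CPM against at most 0.367 CPM. Of all tested lines, 53.5% to 58% had no overlap, in either direction, in each comparison of OSK. The share with OSK above all other groups was not counted. With reads pooled by group, OSK was at 24.7 times the GFP rate (exact 95% interval 6.5 to 209, counting error only), 10.3 times the GSTA4 rate (4.14 to 33) and 11 times the WT rate (4.43 to 35.3).

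IL1B, a proinflammatory cytokine made as an inactive precursor, had a like distribution of reads. IL1B lies on chromosome 2 at 112829751 to 112836903 (minus strand). The OSK libraries held 9, 20 and 6 reads, the WT libraries 2, 0 and 0, the GFP libraries 3, 1 and 0, and the GSTA4 libraries 1, 0 and 0. The lowest OSK library was at 0.422 CPM and the highest of the 9 others at 0.228 CPM, so OSK did not overlap the other groups. A lack of overlap in either direction was found for 53.5% to 58% of tested lines in each comparison of OSK. How many lines had OSK above all other groups was not counted. Pooled by group, OSK was at 8.3 times the GFP rate (exact 95% interval 2.97 to 32.2), 34.6 times the GSTA4 rate (5.82 to 1.41e+03) and 18.5 times the WT rate (4.76 to 159). The wide intervals come from 1 to 4 reads in the other groups. Most GFP reads of IL1B, and all of CXCL8, came from GFP replicate 1, the library with reads on the most genes. The part of that in their ratios to GFP was not tested.

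The fit was repeated with a lower filter, a choice made after the values had been seen, which kept 18354 lines and 7 of the 10 genes. CXCL8 and IL1B passed this filter only through their OSK libraries, so they had to differ there, and no fold change or p of theirs is given from it. The counts of calls with this filter, which include both genes in every comparison of OSK, were 2 against GFP, 3 against GSTA4 and 4 against WT, where 38.6%, 39.4% and 37.3% of lines passed. These counts support no difference in CXCL8 or IL1B. Any difference among the 4 groups was called for 5 of the 7, where 56.5% of lines passed.

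CXCL1 and CXCL2 are close paralogs, so reads may be split between them and with CXCL3. CXCL1 lies on chromosome 4 at 73869393 to 73871242 and CXCL2 on chromosome 4 at 74097035 to 74099293. CXCL1 had 4, 3 and 4 reads in the OSK libraries, 2, 0 and 1 in GFP, and 0 in all libraries of WT and GSTA4. The OSK libraries were above all others. A lack of overlap in either direction was found for 53.5% to 58% of tested lines in each comparison of OSK. The share of lines with OSK above all other groups was not counted. The pooled OSK rate was 3.63 times a floor of 3 reads over the GSTA4 group and 3.88 times that over the WT group. These are not lower bounds, because the counting error of the OSK reads was left out. Against GFP the CXCL1 ratio was 3.48 (exact 95% interval 0.919 to 19.4), which was not a detectable difference at this depth. GFP replicate 1, the library with reads on the most genes, held 2 of the 3 GFP reads of CXCL1. The part of that in the ratio was not tested. CXCL2 had 2, 1 and 0 reads in GFP, 0, 0 and 3 in GSTA4 and 0 in all WT and OSK libraries, so every group was at or under the floor and no ratio is given.

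IL6, the cytokine most often measured in senescent cells, had reads in all 12 libraries but few in each. IL6 lies on chromosome 7 at 22725884 to 22732002 (plus strand). It had 14, 9 and 11 reads in WT, 6, 4 and 1 in GFP, 5, 2 and 5 in GSTA4, and 4, 13 and 7 in OSK. The 3 WT libraries, at 0.648 to 0.87 CPM, were above all GFP and GSTA4 libraries, while the OSK libraries spread from 0.284 to 0.822 CPM across both ranges. Of all tested lines, 34.6% did not overlap in GFP against WT and 49% in GSTA4 against WT. The pooled rate in GFP was 0.361 of the WT rate (exact 95% interval 0.165 to 0.729) and that in GSTA4 0.377 (0.178 to 0.747). With the lower filter and replicate error, no comparison of IL6 passed: the lowest adjusted p was 0.127 for GSTA4 against WT (log2 -1.38, SE 0.671, edgeR), where 31.1% of lines passed. Genes on the other strand share 428 of the 2069 exonic bases of IL6 (20.7%), which bears on its few reads if strand was not used in counting, and this was not tested.

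IL11, a family member linked to fibrosis, and IL1A, an alarmin held inside cells until damage, also had few reads. IL11 had 5, 2 and 6 reads in WT, 2, 0 and 2 in GFP, 1, 3 and 0 in GSTA4, and 1, 5 and 3 in OSK. These ranges overlapped in every pair of groups, and every pooled ratio had an interval that included 1. IL1A had 0 reads in the 3 WT libraries, 7, 0 and 1 in GFP, 0, 2 and 1 in GSTA4, and 2, 2 and 4 in OSK. Its GFP reads came almost all from replicate 1, the library with reads on the most genes, and the part of that in the result was not tested. The pooled OSK rate of IL1A was 2.82 times a floor of 3 reads over the WT group, leaving out the counting error of the OSK reads. Its ratio to GFP was 0.949 (exact 95% interval 0.31 to 2.9). IL11 lies on chromosome 19 at 55364389 to 55370463 and IL1A on chromosome 2 at 112773915 to 112784590, both on the minus strand.

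As a description over the 12 libraries, log2 CPM of CCL2 and LIF had a Pearson correlation of -0.85, CXCL12 and LIF one of 0.74, and CXCL12 and CCL2 one of -0.74. These points share libraries, groups and the same scaling. Among 13693 other named genes with a mean of at least 1 CPM, those most like LIF were CTSO (r = 0.968) and PTP4A3 (r = 0.963). For CCL2 they were TMEM106B (0.96) and DDX3X (0.945), and for CXCL12 LINC01111 (0.904) and DCTN5 (0.898).

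The receptors of these factors were measured in the same libraries, and 8 of 15 listed receptor and antagonist genes could be tested. For CXCL12, the scavenger receptor ACKR3 had 218 to 274 CPM in OSK, against 22.2 to 26.3 CPM in WT, 12.6 to 14.9 CPM in GFP and 19.1 to 26.2 CPM in GSTA4. Its OSK libraries were far above all others, and the difference from GFP was log2 4.15 (SE 0.113, adjusted p = 8.55e-17 by edgeR). CXCR4, the signalling receptor of CXCL12, was lower in GFP than in WT (5.94 against 15.5 CPM, log2 -1.39, adjusted p = 9.83e-05) and lower too in GSTA4 and OSK (log2 -1.5 and -0.99, adjusted p = 1.11e-05 and 0.000463). For CXCL8 and CXCL1, the receptor genes CXCR1 and CXCR2 had at most 0.456 CPM in a library and 0 reads in all libraries of GSTA4 and OSK. CCR2, the receptor of CCL2, had 0 reads in all 12 libraries, which allows up to 0.228 CPM in the shallowest.

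For LIF, the receptor chain LIFR was lower in GSTA4 and OSK (8.16 ± 0.388 and 7.95 ± 1.16 CPM, SD, n = 3) than in GFP (13.7 ± 3.48 CPM). The log2 differences were -0.74 and -0.78 (adjusted p = 0.00262 and 0.000915 by edgeR). The shared chain IL6ST had group means of 149 to 170 CPM, and was higher in GSTA4 than in WT (log2 0.19, adjusted p = 0.0442). That call was lost in 14 of 20 alternatives, among them DESeq2 and both other scalings, and GFP against WT was called without WT replicate 1 (adjusted p = 0.0291). IL6R stood at 3.4 to 4.52 CPM and passed in no comparison, and IL11RA was higher in OSK than in GFP (log2 0.35, adjusted p = 0.0107, or 0.0548 without GFP replicate 1). For IL1A and IL1B, the accessory chain IL1RAP was lower in GSTA4 and OSK than in GFP (log2 -0.49 and -0.51, adjusted p = 0.000959 and 0.000321), and IL1R1, at 0.648 to 1.97 CPM, was higher in OSK than in WT (log2 1.59, adjusted p = 0.00919), a call lost without OSK replicate 1 or OSK replicate 3 (adjusted p up to 0.0532). The IL1 antagonists IL1RN and IL1R2 and the decoys ACKR1 and ACKR2 averaged at most 0.497 CPM. In the 8 testable genes, 2 were higher and 2 lower in OSK against GFP, 1 and 2 in GSTA4 against GFP, and 0 and 3 in GFP against WT. Without WT replicate 1 or GFP replicate 2 the last comparison had 1 higher, and without GFP replicate 1 OSK against GFP had 1 higher.

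**Figure D3:**
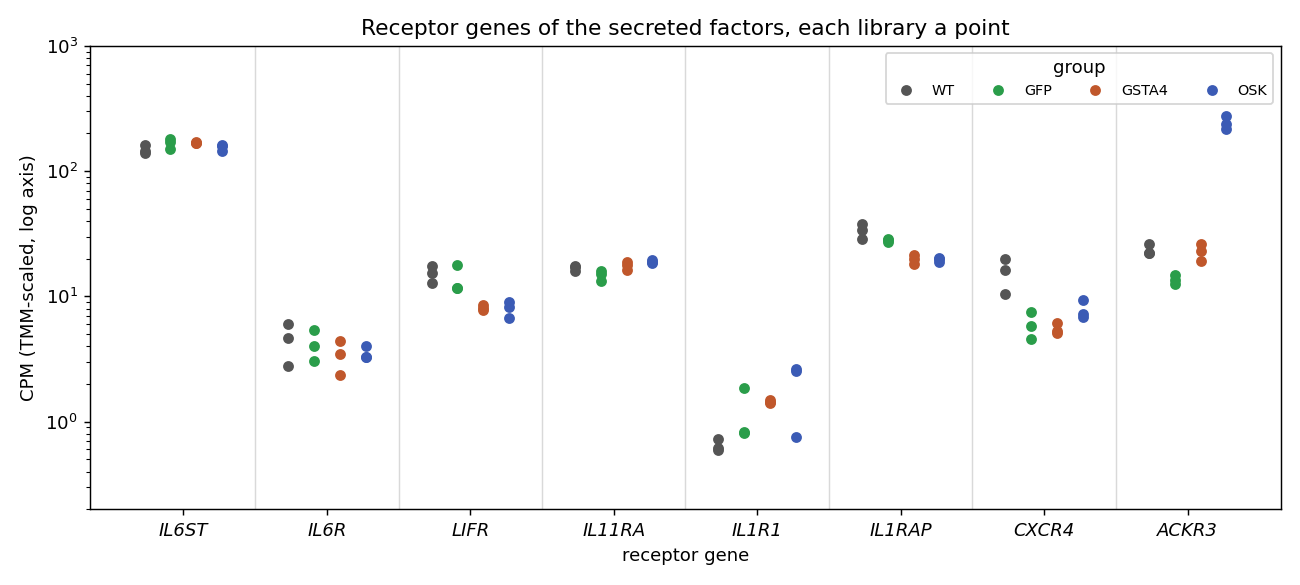
Level (vertical axis, CPM, log scale) of the 8 testable receptor genes (horizontal axis) in each library; a point is a library and colours are the 4 groups. ACKR3 is raised in the OSK libraries (218 to 274 CPM), and LIFR and IL1RAP are lower in GSTA4 and OSK than in GFP.

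Among regulators of these genes, 8 of 19 tested NF-kB factors and inhibitors rose and 1 fell in OSK against GFP, where 23.1% of all lines rose and 22.8% fell, with a median log2 difference of 0.17 against -0.02 over all tested lines. With library size as the only scaling 5 rose and 1 fell, and 5 rose too without GFP replicate 1, GFP replicate 2 or OSK replicate 1, the last with 2 lower. In OSK against WT 5 rose and 2 fell, with a median log2 of 0.09, where 22.7% of all lines rose and 22.7% fell. NFKBIA, an inhibitor that NF-kB itself induces, had 66.4 to 89.3 CPM in OSK, 21 to 26.3 in GFP, 19.4 to 20.6 in GSTA4 and 103, 39.7 and 39.5 in WT. It was higher in OSK than in GFP (log2 1.68, SE 0.252, adjusted p = 1.45e-05 by edgeR) and lower in GFP than in WT (log2 -1.39, or -0.78 without WT replicate 1, adjusted p = 0.000551 and 9.45e-06). NFKB1 was higher in OSK (log2 0.58, adjusted p = 4.61e-06), and TRAF1 was lower (log2 -1.05, adjusted p = 0.00181). WT replicate 1 was the highest WT library for both NFKBIA and CCL2.

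The JAK-STAT3 list had 14 tested genes, of the route below IL6, IL11 and LIF and of JAK-STAT signalling more widely, such as STAT5A, STAT5B and STAT6. Of the 14, 8 rose and 2 fell in OSK against GFP (median log2 0.24), where 23.1% of all lines rose and 22.8% fell. In GSTA4 against GFP 2 rose and 4 fell, where 29.2% of all lines were called and 14.7% rose. In OSK against WT 6 rose and 6 fell, with a median of 0.02, where 22.7% of all lines rose and 22.7% fell. None fell in OSK against GFP without GFP replicate 1 or OSK replicate 3, and 2 fell in GSTA4 without GSTA4 replicate 2. STAT3, the factor activated by that family, had 394 ± 14.3 CPM in OSK and 181 ± 4.82 CPM in GFP (SD, n = 3, log2 1.12, adjusted p = 1.03e-12 by edgeR). The kinase TYK2 was higher by log2 1.76 (adjusted p = 3.16e-15 by edgeR). PIM1, a STAT3 target, was lower in GSTA4 than in GFP (log2 -1.64, adjusted p = 9.97e-10). Of 20 other tested regulators of cytokine mRNA (AP-1 and C/EBP factors, GATA6, mRNA-stability proteins and the kinases MAPK14 and MAPKAPK2), 7 rose and 4 fell in OSK against GFP and 7 rose and 5 fell in GSTA4 against GFP. Over all tested lines 45.9% and 29.2% were called in these comparisons. JUN was lower in OSK (log2 -1.44) and higher in GSTA4 (log2 0.77), and JUNB was lower in GSTA4 (log2 -2.14) and higher in OSK (log2 0.49), with adjusted p between 1.76e-14 and 5.27e-06.

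Of 10 tested inflammasome and IL1-processing genes, 0 rose and 5 fell in OSK against GFP, where IL1B had more reads. Over all tested lines 45.9% were called there, 23.1% higher and 22.8% lower. IL18, the other cytokine cleaved by inflammasomes, fell to 131 ± 13.1 CPM from 353 ± 33.2 CPM (SD, n = 3, log2 -1.43, adjusted p = 7.23e-09 by edgeR). CAPN2, a subunit of the calpain that cuts pro-IL1A, fell in OSK and GSTA4 against GFP (log2 -0.41 and -0.95, adjusted p = 0.00149 and 2e-07).

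Among 34 further chemokines and cytokines, 7 could be tested, and 1 rose and 4 fell in OSK against GFP, and 1 rose and 3 fell in GSTA4 against GFP. In OSK 2 fell without GFP replicate 2 or OSK replicate 1, 2 rose with any 1 library but OSK replicate 2 or 3 left out, and in GSTA4 2 rose without GSTA4 replicate 1. CTF1, of the IL6 family, was lower in OSK (log2 -1.69) and higher in GSTA4 (log2 0.67), and IL33, an IL1 relative, was lower in GSTA4 (log2 -1.28, adjusted p = 3.92e-05 by edgeR). CCL20 and CXCL3, chosen after their values were seen, had too few reads to test and differed in direction. CCL20 averaged 1.06 CPM in OSK and 0 to 0.0506 CPM elsewhere. CXCL3 averaged 0.0471 CPM in OSK and 0.151 to 0.2 CPM elsewhere. Of 27 tested proteases, growth factors and binding proteins that senescent cells secrete, 9 rose and 9 fell in OSK against GFP and 4 rose and 10 fell in GSTA4 against GFP. Of 19 senescence-state genes, 9 rose and 6 fell in OSK against GFP and 3 rose and 6 fell in GSTA4 against GFP. In GSTA4 the number that rose was 5 without WT replicate 1 and 1 without GFP replicate 2, and 3 fell without GFP replicate 3 or GSTA4 replicate 3. The proliferation marker MKI67 averaged 154 CPM in OSK, 57.7 CPM in GFP, 42.7 CPM in GSTA4 and 10.4 CPM in WT, so WT, the group with the most CCL2 and the least LIF, also had the least MKI67, and the part of this in the levels of CCL2 and LIF was not tested.

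**Figure D4:**
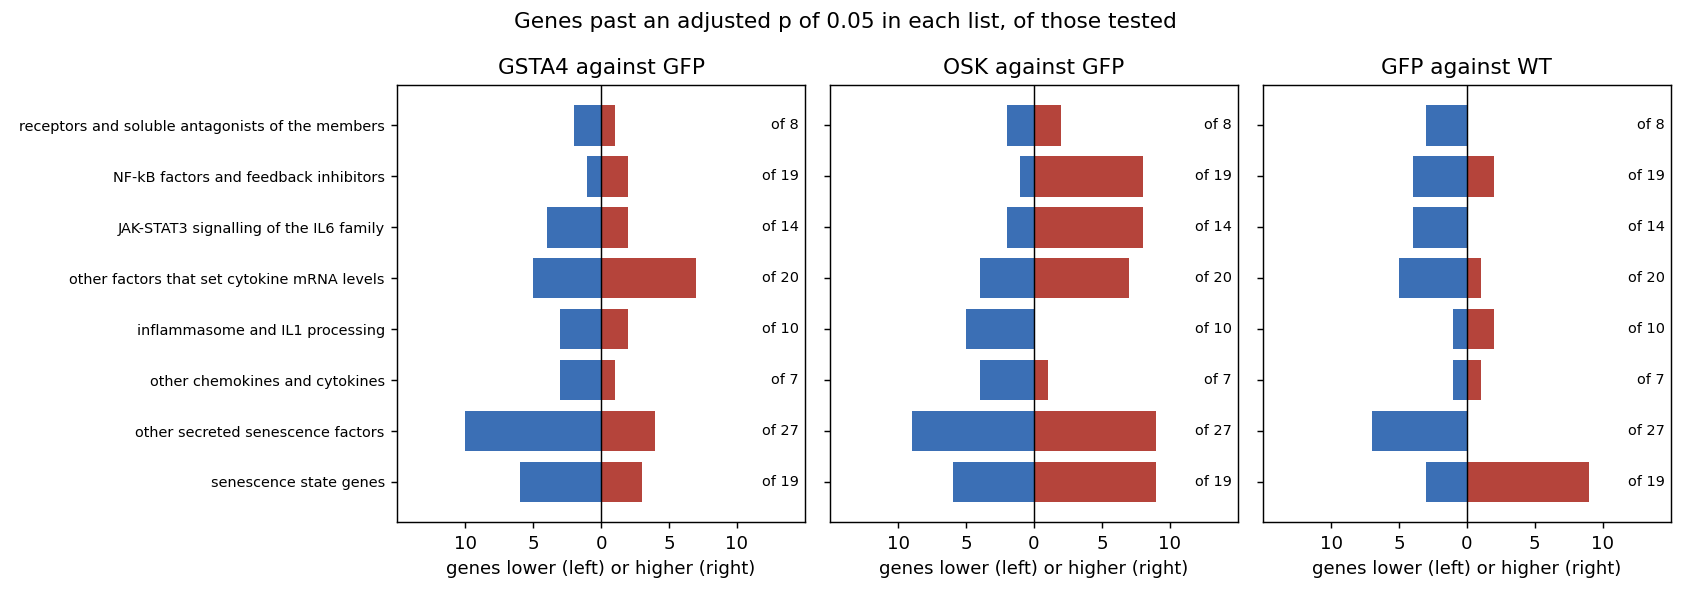
Number of genes past an adjusted p of 0.05 (horizontal axes, lower to the left and higher to the right) in 8 gene lists (vertical axis) for 3 comparisons; the number tested stands at the right of each bar. In OSK against GFP the NF-kB and JAK-STAT3 lists have 8 genes higher each, with 1 and 2 lower. Of all tested lines, 23.1% were higher and 22.8% lower in that comparison.

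Markers of leukocytes and endothelium, cells that make cytokines of their own, were counted in the same libraries. Of 17 leukocyte markers 1 could be tested, CSF1R, and the list summed to 18.5 to 19.3 CPM in GFP, 9.93 to 13.8 CPM in OSK, 3.79 to 11.6 CPM in WT and 0.6 to 0.893 CPM in GSTA4, most of it CSF1R. The defining marker PTPRC had at most 4 reads in a library and 0 in all libraries of GSTA4 and OSK. Of 9 endothelial markers 3 could be tested, and the list summed to 24.5 to 27.8 CPM in OSK and 73.1 to 97.2 CPM in WT, mostly KDR. The endothelial sum was highest in WT, as was CCL2, and so were KDR and ESAM. VWF was lowest in WT, at 0.249 CPM against 0.459 to 2.04 CPM in the other groups. CDH5, TEK, TIE1 and ERG averaged at most 0.606 CPM in a group. CSF1R stood at 9.8 to 13.6 CPM in OSK, above CXCL8, IL1B and CXCL1 there. The part of either list in the levels of the secreted factors was not tested. RPE markers moved as well: of 14 tested, 2 rose and 11 fell in OSK against GFP (1 rose with any GFP, GSTA4 or OSK library but GFP replicate 3 left out), and 9 rose and 2 fell in GFP against WT, and their part in the levels of the secreted factors was not tested. Over all tested lines 23.1% rose and 22.8% fell in OSK against GFP, and 11% rose and 11.2% fell in GFP against WT.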

How the data were processed

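Poly(A) RNA was measured in 12 ARPE-19 libraries. The authors deposited 1 table of unnormalized read counts, which are whole numbers with unequal totals. The submitters' processing notes name STAR 2.7.1a and featureCounts 1.6.2, and list human and mouse builds with no role; the annotation release and strand setting are not given in the sources used here. Lines with no symbol held 0.485% to 0.822% of reads and were left out, which left 40591 of 60605 lines.

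The test used R 4.3.3 with edgeR 4.0.16 (limma 3.58.1): TMM scaling, filterByExpr (15179 lines kept, minimum count 10), all 12 libraries in 1 fit with a mean per group, the two-sided quasi-likelihood test and Benjamini-Hochberg adjustment over all tested lines at 0.05. The common biological coefficient of variation was 7.91%, and fitted fold changes used a prior count of 0.125. Ratios of pooled reads carry exact binomial 95% intervals, which cover counting error only, since no molecular identifiers are stated.

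Named were all 10 genes, every listed receptor, up to 4 genes per other list by the F test with a mean of at least 1 CPM, some of which are not reported here, and the 2 genes most correlated with each testable gene (log2 CPM, prior count 2). RPE65, TTR, OTX2, PTPRC, CDH5, TEK, TIE1, ERG, CCL20 and CXCL3 were named outside this rule, after their values were seen. The 10 genes and the 11 lists were chosen with earlier results of these data known. Coordinates and exon lengths come from GENCODE 29 (GRCh38), promoters from RefSeq (GRCh38.p14). On simulated counts for OSK against GFP over 14896 genes, the test recovered 77% of changes of log2 1 and 94.8% of log2 2, with 7 false calls. Only 100 and 97 genes were changed by these amounts, and the simulated spread depended on the level of a gene alone. The recovery thus does not give the power for CCL2 and CXCL12, whose SEs in OSK against GFP were 0.401 and 0.513. As alternatives, DESeq2 1.42.0 replaced edgeR, the scaling was RLE or by library size alone, the filter was dropped or set at a mean of 1 CPM, the replicate number was a block, or the fit held only the 6 libraries compared, or lacked 1 library; added after seeing the data was a lower filter (minimum count 3, minimum total 10).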

Additional observations from a re-analysis of the deposited data

How the results depend on the processing

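The number of the 10 genes called was 0 for GSTA4 against GFP, and 2 with no filter on low counts (CXCL12 and CCL2, where 14.1% of lines passed) and 0 to 1 with a library left out. For OSK against GFP it was 0, and 3 with no filter (CCL2, CXCL8 and IL1B, where 22.2% passed), 2 with the lower filter (38.6%) and 0 to 1 with a library left out. For OSK against GSTA4 it was 1, and 3 with no filter (22%), 0 with DESeq2, 3 with the lower filter (39.4%) and 0 to 3 with a library left out. For OSK against WT it was 2, and 4 with no filter (21%), 4 with the lower filter (37.3%) and up to 4 with a library left out. For any difference among the groups it was 3, and 5 with no filter (34%) or the lower filter (56.5%). CXCL8 and IL1B, the genes added in comparisons of OSK, passed the lower filter only through OSK. The unfiltered and lower-filter fits test more of the low genes. Leaving out a library lowers the filter's group size, which let CXCL8 in, as without WT replicate 1. It passed there too only through OSK libraries, so it had to differ in OSK. The counts with a library left out include such calls of CXCL8, which support no difference in it. The replicate block changed no such count (2 for GFP against WT, 3 for GSTA4 against WT). Same-numbered libraries correlated at -0.019 to 0.153 over 18 pairs, 3 of them above 0.1, so the numbers were not taken to pair the libraries.

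With a library left out LIF ranged from -0.12 to 0.05 on the log2 scale in OSK against GFP, where it was not called; its sign turned, to 0.00 without GFP replicate 2, 0.05 without GFP replicate 3 and 0.01 without OSK replicate 3. In OSK against GSTA4 it went to 0.00 with library size alone. Library size alone lowered the share of higher calls over all lines from 50.4% to 40% in OSK against GFP, and moved the median of all lines from -0.019 to -0.089. No setting reversed CCL2 or CXCL12 in a comparison where they were called. With the replicate block 2 of the further cytokines rose in OSK against GFP, against 1, and 5 senescence-state genes rose in GSTA4 against GFP, against 3. Depth limits the 7 genes below the filter: a group at 0 reads allows up to 0.0642 to 0.0716 CPM.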
